A study of Mus musculus with 12 samples.

Results

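Transcript levels of 10 neuropeptide genes, *Hcrt*, *Trh*, *Npff*, *Pomc*, *Npy*, *Sst*, *Vip*, *Cck*, *Penk* and *Pdyn*, were examined in bulk RNA sequencing of the mouse hippocampus, out of 26409 genes in the table. The genes were chosen by symbol after earlier results on these libraries were known. Measured TPM values entered the choice without a record of which comparison was used. Differences of these genes between genotypes or sexes, interactions included, are therefore all given as a description and not as evidence. All 10 were found and all had a mean of at least 0.1 TPM (an abundance corrected for transcript length and scaled to a common library total). However, *Npff* reached that mean through the female WT libraries alone, *Pomc* through WT libraries alone, and *Hcrt* mainly through WT libraries. The 12 libraries were 6 WT and 6 *Dek* cKO, each genotype with 3 samples labelled female and 3 labelled male. *Dek* cKO mice were a constitutive knockout line, obtained by deleting floxed *Dek* exons with CMV-Cre on a C57Bl/6 background and kept without the Cre, and DEK is a chromatin-bound protein. All mice were adults that had been through behavioral testing, and the whole hippocampus was dissected, so every value is an average over all its cell types and over any adjoining tissue taken with it. In such samples, fewer cells of a type and less RNA per cell cannot be told apart.

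*Dek* itself was 44.2 to 51.9 TPM in the 6 WT libraries and 5.55 to 9.25 TPM in the 6 cKO libraries. Genes of the Y chromosome went against the labelled sex in 2 libraries: *Eif2s3y* was 72.7 TPM in the library labelled female cKO 3 and 0.111 TPM in the library labelled male cKO 1. Labels were kept throughout, and values without both libraries are given where they change a call. The library names of the 3 female WT samples carry a different prefix (C57) from those of the other 9 (CMV), so that prefix and WT genotype in females cannot be told apart. Of 14160 genes averaging 1 TPM or more, male cKO 3 exceeded 2 times the highest of the other 11 libraries for 95 (0.671%), the most of any library. Female WT 1 did so for 77 (0.544%), and female cKO 3, the next, for 17 (0.12%). Total TPM over the listed genes was 825750 to 845553 per library. TPM values keep no read depth, so the number of reads behind a low value is unknown.

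Neuropeptides are made as larger precursor proteins, sorted into dense-core vesicles, cut by prohormone convertases and released to act on G-protein-coupled receptors. In the hippocampus, *Sst*, *Npy*, *Vip* and *Cck* mark classes of inhibitory interneurons, *Cck* is also made by pyramidal cells, *Pdyn* (dynorphin precursor) is known from granule cells of the dentate gyrus, and *Penk* encodes the enkephalin precursor. *Hcrt*, the precursor of the arousal peptides orexin-A and orexin-B, is made by neurons of the lateral hypothalamus, and *Pomc*, the precursor of melanocortins and beta-endorphin, by neurons of the arcuate nucleus and by the pituitary. *Trh* encodes thyrotropin-releasing hormone, best known from the paraventricular hypothalamus, and *Npff* encodes neuropeptide FF, a modulator of opioid responses known from the spinal cord and hindbrain.

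Promoter sequences are shown for *Hcrt*, *Pomc*, *Trh* and *Npy*, the 4 genes whose libraries stood apart and that were in the promoter set used. *Sst*, the gene that varied least, is shown for contrast. Each run gives the 250 bases before the annotated start on the gene's own strand (RefSeq, GRCm38.p6), at chr11:100762932-100763181 for *Hcrt* (minus strand), chr12:3954695-3954944 for *Pomc* (plus strand), chr6:92244651-92244900 for *Trh* (minus strand), chr6:49822460-49822709 for *Npy* (plus strand) and chr16:23890845-23891094 for *Sst* (minus strand). Capitals mark TATAAA (the TATA box letters), TGACGTCA (the cAMP response element, CRE) or its shorter core TGACG, each searched on both strands, the core lying within the full element.
Hcrt: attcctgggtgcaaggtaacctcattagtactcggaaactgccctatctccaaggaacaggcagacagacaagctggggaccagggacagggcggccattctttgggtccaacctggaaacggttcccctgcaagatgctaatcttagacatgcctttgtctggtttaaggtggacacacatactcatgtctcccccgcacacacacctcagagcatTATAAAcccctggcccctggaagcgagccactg
Pomc: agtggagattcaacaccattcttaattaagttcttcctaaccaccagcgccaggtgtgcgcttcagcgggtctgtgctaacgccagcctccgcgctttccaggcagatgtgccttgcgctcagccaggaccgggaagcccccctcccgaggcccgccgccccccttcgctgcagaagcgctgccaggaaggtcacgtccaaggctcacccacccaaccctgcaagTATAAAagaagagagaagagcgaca
Trh: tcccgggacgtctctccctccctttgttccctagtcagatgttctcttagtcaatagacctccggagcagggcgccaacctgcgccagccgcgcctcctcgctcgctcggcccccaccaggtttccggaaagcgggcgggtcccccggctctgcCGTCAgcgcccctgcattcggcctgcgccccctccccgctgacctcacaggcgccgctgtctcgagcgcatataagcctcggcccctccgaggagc
Npy: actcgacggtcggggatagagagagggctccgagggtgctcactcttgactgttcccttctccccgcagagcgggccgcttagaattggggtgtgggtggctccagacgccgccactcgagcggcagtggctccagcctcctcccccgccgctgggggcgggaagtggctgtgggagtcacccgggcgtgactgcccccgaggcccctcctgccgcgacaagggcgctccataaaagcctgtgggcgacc
Sst: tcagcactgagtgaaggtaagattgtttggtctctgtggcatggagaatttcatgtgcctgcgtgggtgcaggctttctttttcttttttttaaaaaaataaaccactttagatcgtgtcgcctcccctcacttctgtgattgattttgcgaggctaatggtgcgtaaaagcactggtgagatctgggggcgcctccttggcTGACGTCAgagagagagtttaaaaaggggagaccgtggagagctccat
TATAAA stood at -33 to -28 from the start in *Hcrt* and at -25 to -20 in *Pomc*, and 12.37% of 32851 promoter windows of the same length held it. The full CRE occurred at -48 to -41 in *Sst* and in 1.546% of all windows. The core alone occurred in *Trh* at -96 to -92, on the opposite strand, and in 17.77% of all windows. None of these letters occurred in the *Npy* window. Of the 10 genes, 8 had a window in the RefSeq promoter set used here, and *Npff* and *Penk* did not. These matches describe the letters only.

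The 10 genes fell into a group of 6 at means of 11.0 to 604 TPM and a group of 4 at means of 0.182 to 2.20 TPM. In order of mean TPM over the 12 libraries, *Cck* (604 TPM) was followed by *Sst* (433 TPM), *Npy* (156 TPM), *Penk* (45.0 TPM), *Vip* (25.0 TPM), *Pdyn* (11.0 TPM), *Trh* (2.20 TPM), *Pomc* (0.471 TPM), *Hcrt* (0.286 TPM) and *Npff* (0.182 TPM). The 6 peptides of hippocampal cells thus occupied the 6 upper places. Neighbours in this order were compared within libraries on log2(TPM + 0.1) with a two-sided exact sign-flip permutation test (n = 12), adjusted over the 9 pairs by Benjamini-Hochberg. Of the 9 pairs, 7 differed. *Pomc* and *Hcrt* did not (exact permutation test, mean log2 difference 0.04, SD 1.17, adjusted p = 0.9375), and neither did *Hcrt* and *Npff* (exact permutation test, mean log2 difference 0.70, SD 1.48, adjusted p = 0.158). *Sst* exceeded *Npy* in 11 of 12 libraries, the exception being male cKO 3. *Trh* exceeded *Pomc* in only 8 of 12 libraries (exact permutation test, mean log2 difference 2.23, SD 2.68, adjusted p = 0.0195). *Pomc* was the higher of this pair in female WT 3 and in every male WT library. The order was taken from the same 12 libraries, so these tests describe it and are not independent support. *Pomc*, *Hcrt* and *Npff* reached the filter only or mainly through WT libraries, so nothing is read from the tests that include them. The 10 genes together took 0.141% to 0.163% of listed TPM in 11 libraries and 0.201% in male cKO 3.

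**Figure D1:**
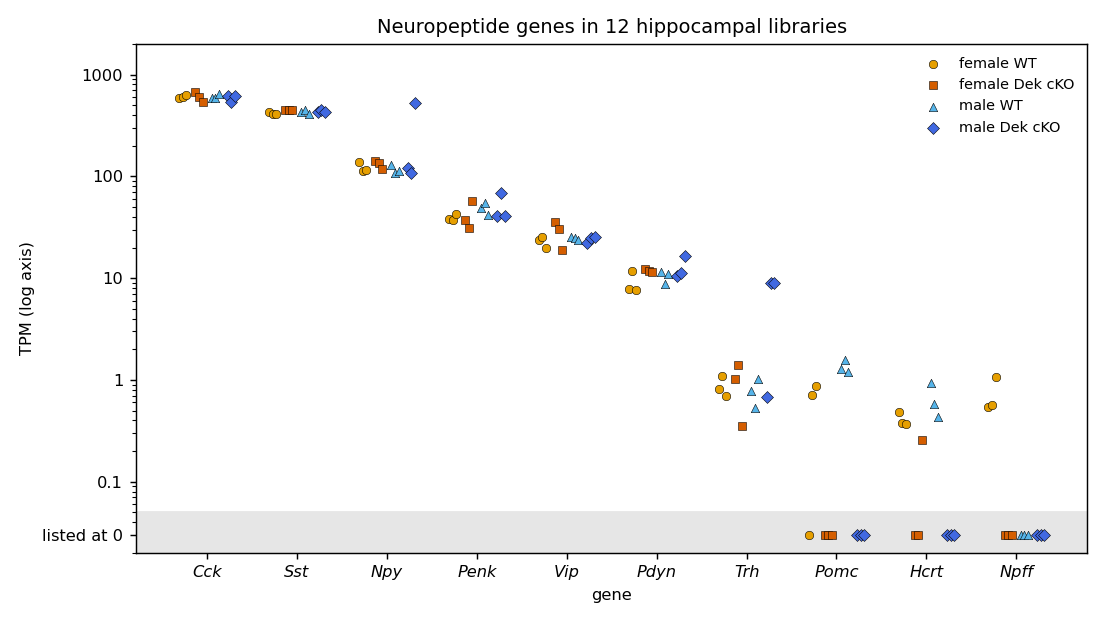
Level of each of the 10 genes in each of the 12 libraries in TPM on a log axis, with genes ordered by mean and values listed at 0 drawn in the grey band. *Npy* in male cKO 3 (529 TPM) and *Trh* in male cKO 2 and 3 (9.04 and 8.93 TPM) sit apart from the other libraries, and the zeros of *Hcrt* and *Pomc* lie mostly in cKO libraries.

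*Hcrt* (ENSMUSG00000045471, chr11:100761069-100762931, minus strand, GRCm38) was detected at a low level in WT libraries and was listed at 0 in most cKO libraries. It was 0.481, 0.380 and 0.370 TPM in female WT 1, 2 and 3 and 0.933, 0.576 and 0.434 TPM in male WT 1, 2 and 3. In cKO it was 0.258 TPM in female cKO 3 and listed at 0 in the other 5 libraries. Every cKO library was therefore below every WT library, a pattern that 19 of 18197 genes tested (0.104%) shared. In limma's test on log2(TPM + 0.1) with Benjamini-Hochberg adjustment over all 18197 genes, *Hcrt* differed by -2.29 (SE 0.38) in cKO against WT, and it was the 1 gene of the 10 to be called, where 27 genes (0.148%) were called in all, 2 of them lower in cKO. The other lower gene was *Dek*. This contrast may have entered the choice of the gene, so nothing is read from the call. At such low levels the size of the log2 difference is set largely by the constant of 0.1 TPM, and it was -0.55 with a constant of 1. With each library left out in turn, the call held in 1 of 12 fits (without female cKO 3) and was lost in the other 11.

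*Pomc* (ENSMUSG00000020660, chr12:3954951-3960642, plus strand) had a like distribution of zeros. It was 1.28, 1.58 and 1.21 TPM in male WT 1, 2 and 3, and 0.711 and 0.868 TPM in female WT 2 and 3. It was listed at 0 in female WT 1 and in all 6 cKO libraries, so the genotypes overlapped only through female WT 1 and no fold change is given. *Pomc* was not called over all 12 libraries, and it was called without female WT 1 (adjusted p = 6.37e-05, limma) and among the 9 libraries named CMV (adjusted p = 0.000944, limma). Both settings leave out female WT 1, the only WT library at 0, so cKO libraries all at 0 then face WT libraries all above 0. As for *Hcrt*, nothing is read from these calls. The adjusted p of *Pomc* (limma) over all alternatives was 6.37e-05 to 0.267. Being listed at 0 in at least 5 of 6 cKO libraries and above 0 in at least 5 of 6 WT libraries was shared by 11 genes (0.0604%), *Hcrt* and *Pomc* among them, and the mirror pattern by 13 genes (0.0714%). Most of the other genes with this pattern were predicted genes, and *Vsig8* and *Mcpt4* were among the rest.

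*Npff* (ENSMUSG00000023052, chr15:102523839-102524942, minus strand) was seen in female WT libraries only. It was 0.542, 0.567 and 1.07 TPM there, in replicates 1, 2 and 3, and listed at 0 in the other 9 libraries, all of which bear the CMV prefix. The pattern of 3 libraries above 0 and 9 at 0 was shared by 2 genes (0.011%). Because all male libraries were at 0, *Npff* showed no genotype difference within males, and in females genotype and library prefix cannot be told apart. *Npff* lies almost wholly within *Gm28047* (chr15:102523843-102625067), a protein-coding gene on the same strand that was 0.455 to 1.10 TPM in all 12 libraries, so how reads were divided between the 2 genes makes the *Npff* values uncertain.

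**Figure D2:**
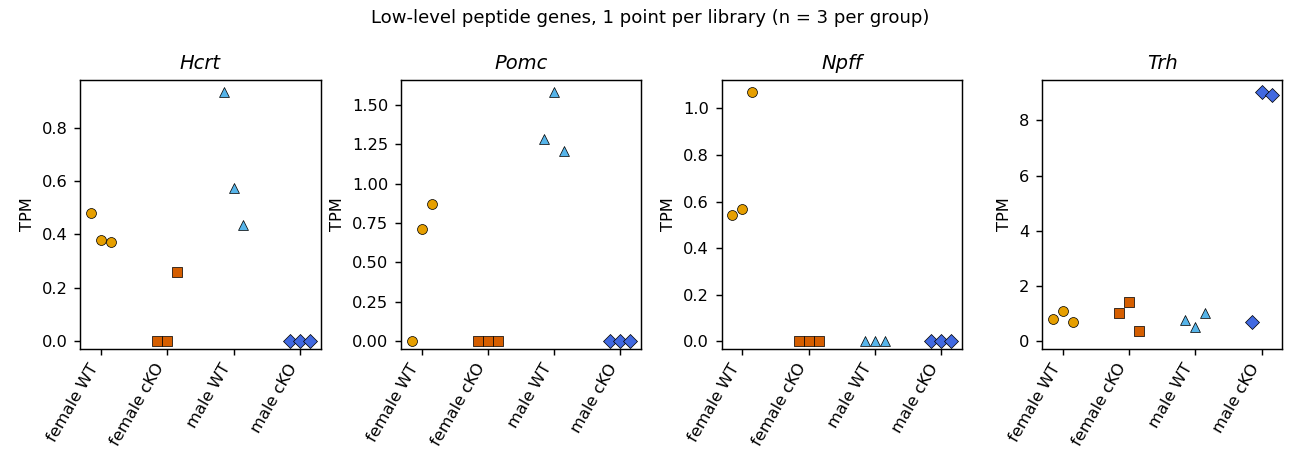
TPM of *Hcrt*, *Pomc*, *Npff* and *Trh* in each library on linear axes, by group (n = 3 per group). *Hcrt* and *Pomc* are at 0 in all 3 male cKO libraries, *Npff* is above 0 in female WT libraries alone, and *Trh* is high in male cKO 2 and 3 and at 0.675 TPM in male cKO 1.

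Markers of the tissue that normally makes these peptides were scarce in all libraries. The summed level of 9 hypothalamic transcription factor and enzyme genes was 3.89 to 7.73 TPM in WT and 3.49 to 7.73 TPM in cKO libraries, so the genotypes overlapped fully. *Hmx2* was listed at 0 in all 12 libraries, *Hmx3*, *Sim1*, *Nr5a1* and *Fezf1* were below the filter of 0.1 TPM, and most of the sum came from *Hdc* (histidine decarboxylase, mean 3.52 TPM) and *Tbx3* (1.74 TPM). The 4 markers past the filter were not called in either direction. Of 5 pituitary genes, the sum was 0.371 to 5.66 TPM in WT and 0.546 to 2.94 TPM in cKO libraries, with the highest value in female WT 1, where *Pomc* was listed at 0 and *Prl* (prolactin) was 3.02 TPM. *Gh* (growth hormone) was 0.634, 0.115 and 0.389 TPM in male WT 1, 2 and 3 and, like *Pomc*, listed at 0 in all 3 male cKO libraries. In females *Gh* was 1.54, 0.114 and 0 TPM in WT 1, 2 and 3 and 0.226, 0 and 0.154 TPM in cKO 1, 2 and 3, whereas *Pomc* there was listed at 0 in WT 1 and in all 3 cKO libraries. *Cga* (the common subunit of glycoprotein hormones) was above 0 in 3 WT libraries and 1 cKO library, and *Tshb* (thyrotropin beta subunit) was highest in male cKO 3, at 1.71 TPM. Among 28 other peptide genes known mainly from neighbouring tissue, 15 passed the filter and none was called in either direction, with *Nts* (neurotensin, mean 10.3 TPM), *Calca* (2.86 TPM) and *Npb* (1.81 TPM) the most abundant. *Pmch*, the melanin-concentrating hormone gene of the lateral hypothalamus, was above 0 in all 12 libraries at 0.124 to 1.03 TPM, with a log2 difference of -0.48 (SE 0.38). The median log2 difference over the 15 was 0.11, beside 0.02 over all genes. The part of dissected tissue, pituitary included, in the zeros of *Hcrt* and *Pomc* was not tested.

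Receptors for these peptides were present in the same libraries at levels that did not pass the test. *Hcrtr1*, which binds orexin-A preferentially, was 0.858 to 1.74 TPM in WT and 1.12 to 4.45 TPM in cKO libraries, the top value again being male cKO 3. *Hcrtr2*, which binds both orexins, was 0.879 to 1.46 TPM in WT and 0.594 to 1.33 TPM in cKO libraries. The melanocortin receptor *Mc4r* averaged 2.20 TPM and *Mc3r* 0.247 TPM, and the neuropeptide FF receptor *Npffr1* averaged 2.45 TPM. *Npffr2* was above 0 in 3 libraries and below the filter.

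*Trh* (ENSMUSG00000005892, chr6:92242061-92244650, minus strand) was near 1 TPM in 10 libraries and about 10 times higher in 2 of the male cKO libraries. It was 0.819, 1.10 and 0.693 TPM in female WT 1, 2 and 3, 1.03, 1.41 and 0.350 TPM in female cKO 1, 2 and 3, and 0.780, 0.524 and 1.03 TPM in male WT 1, 2 and 3. In male cKO 1, 2 and 3 it was 0.675, 9.04 and 8.93 TPM. Of the 2 libraries whose Y-linked transcripts went against the label, male cKO 1, without them, was the low library of its group, and female cKO 3, with them, had the lowest *Trh* of all 12. Against a median of 0.819 TPM in the other 11 libraries, the ratio was 11.0 in male cKO 2 and 10.9 in male cKO 3. The log2 difference between genotypes was 1.08 (SE 0.67) over both sexes, -0.06 (SE 0.81) in females and 2.23 (SE 0.81) in males, none called. Without male cKO 1 and female cKO 3, whose Y-linked transcripts went against the label, the male cKO group consisted of the 2 high libraries alone. The male difference of *Trh* was then 3.41 (SE 0.31) and called (adjusted p = 0.00900, limma). That outcome follows from which libraries were left, so nothing is read from the call. The adjusted p of *Trh* in males was above 0.05 in every other alternative run. Without male cKO 2 and 3, the difference over both sexes was -0.04 (SE 0.33).

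The receptor *Trhr* did not move with its ligand. It was 6.92 TPM in male cKO 2 and 1.43 TPM in male cKO 3, against a median of 2.66 TPM and 2.90 TPM in the respective other 11 libraries, so the libraries with the most *Trh* held the highest and the second lowest value of *Trhr*. *Trhr2* was 0.609 and 0.793 TPM in the same libraries and highest in female cKO 1, at 3.00 TPM.

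*Npy* (ENSMUSG00000029819, chr6:49822710-49829507, plus strand), which encodes neuropeptide Y, an inhibitory transmitter of interneurons, was even across 11 libraries and high in 1. It was 137, 113 and 115 TPM in female WT 1, 2 and 3, 141, 136 and 118 TPM in female cKO 1, 2 and 3, and 128, 108 and 113 TPM in male WT 1, 2 and 3. Male cKO 1 and 2 had 122 and 109 TPM, and male cKO 3 had 529 TPM. That library was 4.48 times the median of the other 11 (118 TPM), and the coefficient of variation over the 12 libraries, 75.7%, was 9.75% without it. The log2 difference between genotypes was 0.42 (SE 0.31) with this library and 0.07 (SE 0.08) without it, and was called in neither fit.

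Several genes of peptide storage and reception stood apart in male cKO 3 together with *Npy*. *Chga* (chromogranin A, a granule core protein) was 268 TPM there and 94.7 to 121 TPM in the other 11 libraries, and *Chgb* (chromogranin B) was 438 TPM against 268 to 356 TPM. The somatostatin receptor *Sstr2* was 24.2 TPM against 6.23 to 11.9 TPM, and *Pdyn* was 16.4 TPM against 7.71 to 12.3 TPM. The neuropeptide Y receptors lay at the other end: *Npy1r* was 4.92 TPM against 8.33 to 12.8 TPM, *Npy2r* 13.7 TPM against 19.0 to 34.2 TPM, and *Npy5r* 1.96 TPM against 2.14 to 4.04 TPM. Of the 21 receptors past the filter, 6 were highest and 6 lowest in male cKO 3 (28.6% each), where 19.5% and 15.3% of all genes tested were. Of the 13 processing and granin genes, 3 were highest and 2 lowest there.

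Among markers of inhibitory interneurons, some stood at the high end and others at the low end in male cKO 3. *Sst* was 427 TPM against 406 to 453 TPM in the other 11, and *Gad1*, an enzyme of GABA synthesis, 219 TPM against 180 to 234 TPM. Of 12 interneuron markers, 2 were highest there (16.7%) and 3 were lowest (25%), beside the 19.5% and 15.3% of all genes tested. The highest were *Gad2*, at 65.8 TPM against at most 58.0 TPM, and *Lhx6*, at 12.6 TPM against at most 12.5 TPM. The lowest were the vesicular GABA transporter *Slc32a1*, at 41.5 TPM against at least 43.1 TPM, *Erbb4*, at 11.7 TPM against at least 15.2 TPM, and *Reln* (reelin), at 18.8 TPM against at least 20.3 TPM. Their summed level was 577 TPM in male cKO 3 and 534 to 602 TPM in WT libraries.

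Markers of the principal cell fields were likewise uneven in male cKO 3. Of 4 dentate markers, *Prox1* was highest there, at 4.95 TPM against 1.29 to 2.97 TPM, *Tdo2* was lowest, at 1.96 TPM against 2.45 to 8.83 TPM, and *Dsp* and *C1ql2* lay within the range of the other libraries. Of 3 CA3 markers, *Grik4*, at 49.5 TPM against 26.5 to 39.0 TPM, and *Bok*, at 73.3 TPM against 40.1 to 70.0 TPM, were highest there, and *Cpne4* lay within the range. The isocortex markers summed to 91.7 TPM, the lowest of the 12 libraries. The part of these differences in the *Npy* value was not tested.

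**Figure D3:**
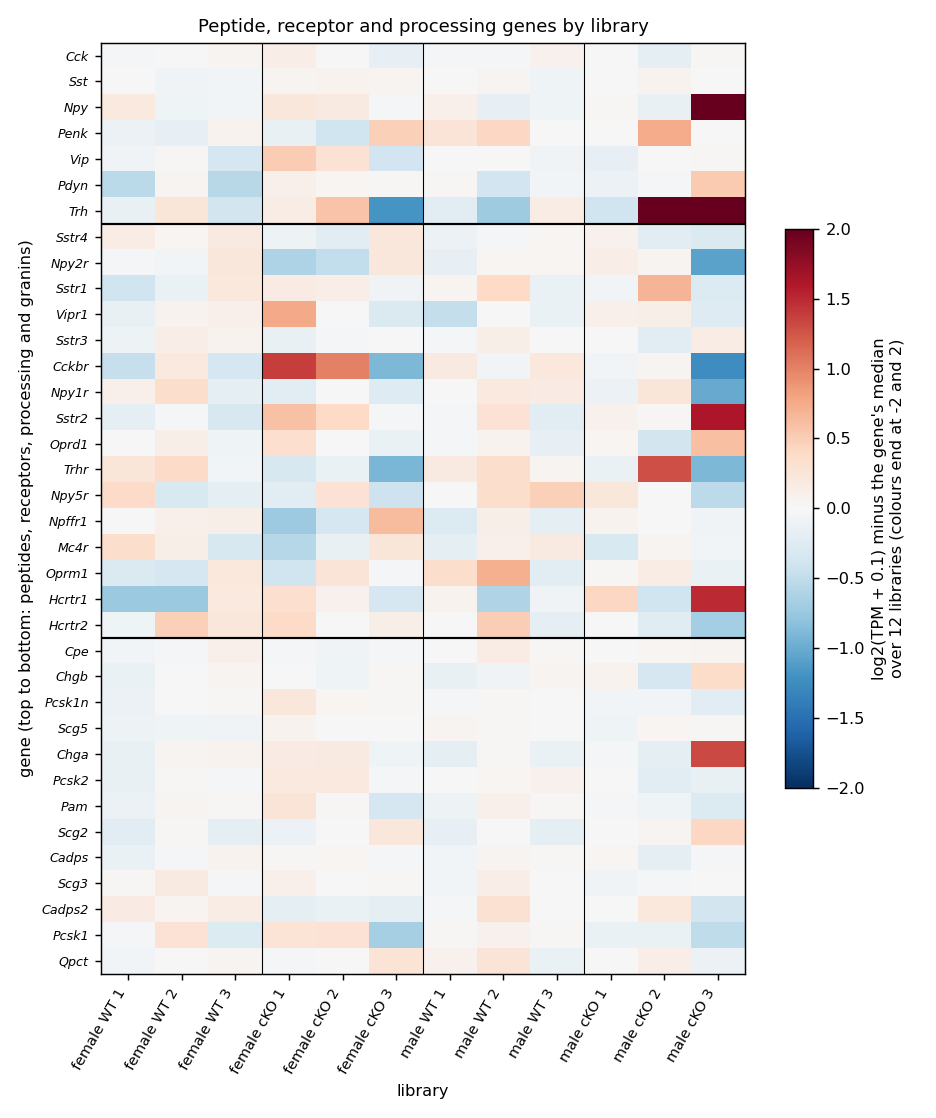
Peptide, receptor and processing genes averaging 1 TPM or more (rows) in the 12 libraries (columns), coloured by log2(TPM + 0.1) minus the gene's median over libraries. Male cKO 3 has the highest *Npy*, *Chga*, *Sstr2* and *Hcrtr1* and the lowest *Npy1r* and *Npy2r*, and female cKO 1 and 2 have the highest *Cckbr*.

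*Sst* (ENSMUSG00000004366, chr16:23889573-23890958, minus strand), the somatostatin gene of dendrite-targeting interneurons, varied least of the 10. It was 423 ± 15.3 TPM (SD, n = 6) in WT and 443 ± 11.2 TPM (SD, n = 6) in cKO libraries, with a coefficient of variation of 3.85% over all 12. In females it was 430.1, 410.5 and 414 TPM in WT 1, 2 and 3 and 446, 452 and 449 TPM in cKO 1, 2 and 3, which did not overlap, as was so for 7.45% of all genes tested (all cKO above all WT in females). In males, WT 1, 2 and 3 had 428, 447 and 406 TPM and cKO 1, 2 and 3 had 432, 453 and 427 TPM, which did. The log2 difference over both sexes was 0.07 (SE 0.03). *Cck* (ENSMUSG00000032532, chr9:121489824-121495694, minus strand), the cholecystokinin gene, was 612 ± 22.8 TPM (SD, n = 6) in WT and 597 ± 51.0 TPM (SD, n = 6) in cKO libraries, and its log2 difference was -0.04 (SE 0.05). The lowest *Cck* values, 535 TPM in male cKO 2 and 541 TPM in female cKO 3, came from the libraries with the highest *Penk*.

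*Penk* (ENSMUSG00000045573, chr4:4133531-4138819, minus strand) was 43.9 ± 6.88 TPM (SD, n = 6) in WT and 46.1 ± 14.3 TPM (SD, n = 6) in cKO libraries. Its highest values were 69.3 TPM in male cKO 2 and 57.2 TPM in female cKO 3, and its lowest, 31.2 TPM, in female cKO 2, so the cKO range enclosed the WT range of 36.9 to 54.6 TPM. The log2 difference of 0.03 (SE 0.17) was far smaller than this spread. *Pdyn* (ENSMUSG00000027400, chr2:129686565-129699844, minus strand) was 9.77 ± 1.90 TPM (SD, n = 6) in WT and 12.3 ± 2.08 TPM (SD, n = 6) in cKO libraries, with a log2 difference of 0.33 (SE 0.14) that was not called. The female WT values of *Pdyn* in replicates 1 and 3, 7.84 and 7.71 TPM, were the lowest and male cKO 3 the highest. The opioid receptors *Oprd1* (mean 7.95 TPM), *Oprm1* (1.83 TPM) and *Oprk1* (0.918 TPM) were not called.

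*Vip* (ENSMUSG00000019772, chr10:5639218-5647617, plus strand), which encodes vasoactive intestinal peptide and marks interneurons that inhibit other interneurons, was 23.7, 25.2 and 19.6 TPM in female WT 1, 2 and 3 and 25.1, 24.8 and 23.7 TPM in male WT 1, 2 and 3. It was 35.4, 30.6 and 19.1 TPM in female cKO 1, 2 and 3 and 22.2, 25.0 and 25.3 TPM in male cKO 1, 2 and 3. The 2 highest values, in female cKO 1 and 2, came from the libraries with the most isocortex marker RNA. The 7 markers summed to 214 and 186 TPM in those libraries, to 115 to 134 TPM in the WT libraries and to 91.7 to 128 TPM in the other 4 cKO libraries. The summed level of 8 thalamus and habenula markers was high in the same libraries. It was 69.1 and 72.0 TPM in female cKO 1 and 2 and 41.7 to 63.6 TPM in WT libraries. The markers were uneven: in female cKO 1, 4 of the 8 were highest of all libraries. There, *Prkcd* and *Pou4f1* were 0.785 and 0.510 times the median of the other 11. The sum was also 68.5 TPM in female cKO 3, which had the lowest *Vip*, and 64.3 TPM in male cKO 1, where *Vip* was 22.2 TPM. *Cckbr*, the main brain receptor for cholecystokinin, was 25.0 and 19.1 TPM in female cKO 1 and 2 and 3.94 to 10.9 TPM in the other 10. The log2 difference of *Vip* was 0.27 (SE 0.18) in females and -0.02 (SE 0.18) in males, and the part of dissected cortex or thalamus in it was not tested.

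**Figure D4:**
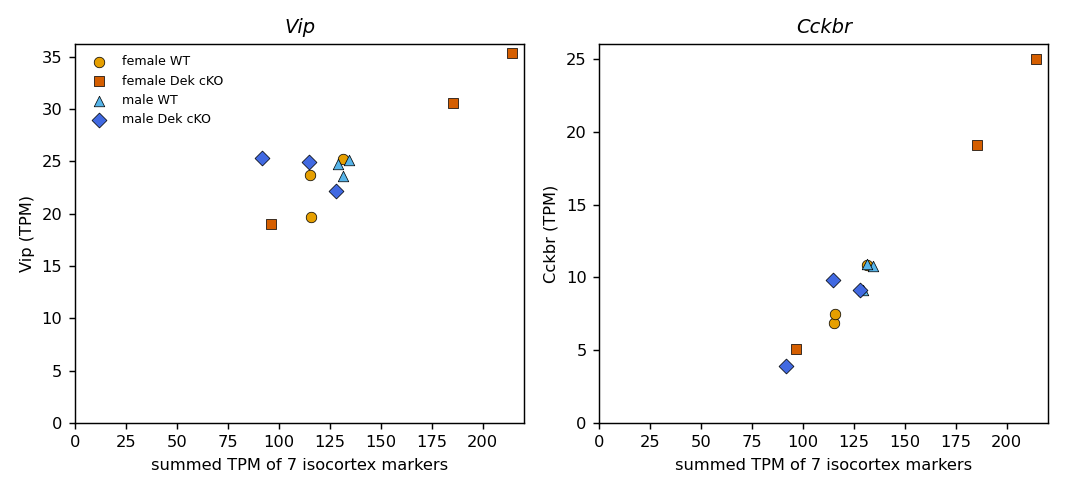
TPM of *Vip* (left) and of the receptor *Cckbr* (right) against the summed TPM of 7 isocortex markers, 1 point per library. Female cKO 1 and 2, at 214 and 186 TPM of marker RNA, have the highest values of both genes.

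**Figure D5:**
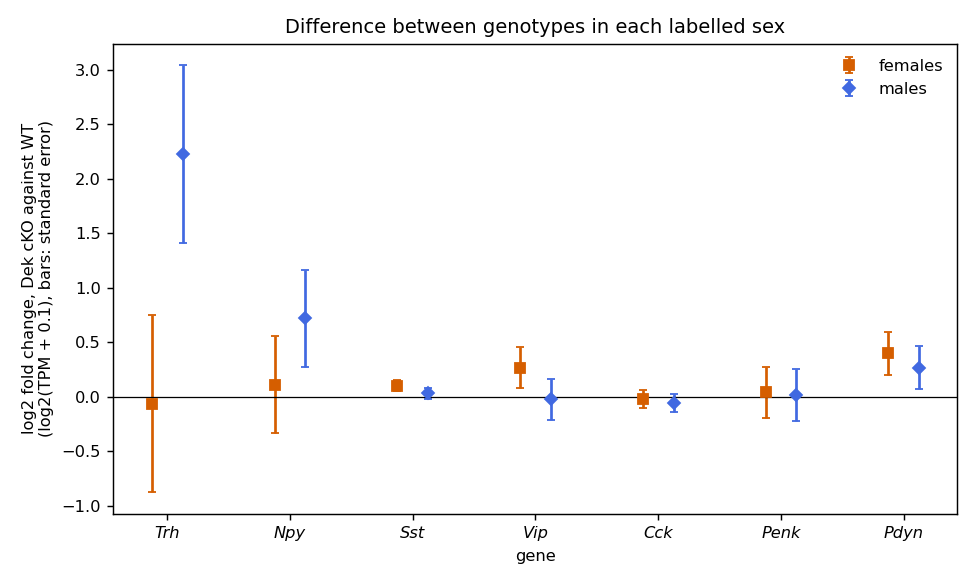
Log2 difference between *Dek* cKO and WT on log2(TPM + 0.1), with standard error, in females and males, for the 7 genes above 0 in all libraries. *Trh* in males (2.23, SE 0.81) and *Npy* in males (0.72, SE 0.45) lie farthest from 0, and they rest on male cKO 2 and 3 for *Trh* and on male cKO 3 for *Npy*.

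The remaining genes of the peptide system gave no call in the comparison of genotypes. None of 21 receptors, 13 processing and granin genes and 8 other hippocampal peptide genes was called, where 0.148% of all genes were. Of these, 2 receptors, 2 processing genes and none of the 8 peptides had an unadjusted p under 0.05 (limma), as did 1208 of all 18197 genes. The median log2 difference was 0.06 over the receptors, 0.00 over the processing genes and 0.11 over the other peptides, and 0.02 over all genes. *Cpe* (carboxypeptidase E, which trims cut peptides) was the most abundant processing gene at a mean of 1749 TPM, with a log2 difference of -0.04 (SE 0.05). *Chgb* (337 TPM) and *Pcsk1n* (an inhibitor of the convertase encoded by *Pcsk1*, 313 TPM) differed by 0.04 (SE 0.09) and 0.01 (SE 0.06). Among the peptides, *Vgf* (81.2 TPM), *Grp* (39.1 TPM) and *Cort* (10.2 TPM) differed by 0.01 (SE 0.16), -0.08 (SE 0.20) and 0.02 (SE 0.24). *Sstr4* and *Npy2r* were the most abundant receptors, at means of 31.6 and 27.1 TPM.

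Within females and within males, none of the 10 neuropeptide genes was called, where 0.0165% of genes were in each sex. To ask whether the effect of *Dek* loss differed between the labelled sexes, the interaction was tested, and it was called for no gene of the 18197 (0%), with 770 at an unadjusted p under 0.05 (limma). For *Trh* it was 2.29 (SE 1.15, adjusted p = 0.966, limma) and for *Hcrt* -1.12 (SE 0.74, adjusted p = 0.966, limma). Male WT and female WT libraries were compared to ask about sex without the deletion, and again no gene was called (0%), with 660 at an unadjusted p under 0.05 (limma). Even the 4 Y-linked genes, 3.46 to 7.41 higher in male WT on the log2 scale, were not called. The fit pools the spread of all 4 groups, including the libraries whose Y-linked genes went against the label. The lack of calls in either comparison therefore cannot show an absence of sex differences. All female WT libraries carry the C57 prefix and all male WT libraries the CMV prefix. Sex and prefix cannot be told apart here, and the interaction holds the same overlap. *Pomc* was 1.76 (SE 0.71) higher in male WT on the log2 scale (adjusted p = 1, limma), and 0.71 (SE 0.38) without female WT 1. The other members apart from *Npff* differed by -0.16 to 0.50 on that scale.

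Genes with the most similar profile over the 12 libraries were listed by Pearson's r of log2(TPM + 0.1), over genes that averaged 1 TPM or more, with no test. For *Hcrt* the closest was *Dek* (r = 0.89), followed by *Ccdc34* (0.87) and *Aspdh* (0.87), and for *Pomc* it was *Donson* (0.88). *Dek* is the deleted gene, so its r with *Hcrt* largely restates the split of both genes between genotypes and is not evidence of co-expression. For *Trh* the closest was *Gm13114* (0.94), which was 6.64 and 6.96 TPM in male cKO 2 and 3 and listed at 0 in the other 10 libraries. For *Npy* the 3 closest were *Col27a1* (0.98), *Trib2* (0.98) and *S1pr3* (0.97), whose values in male cKO 3 were 27.8, 69.1 and 21.6 TPM, against at most 4.40, 17.7 and 4.53 TPM elsewhere, so these similarities rest on that library. For *Vip* the closest was *Dusp26* (0.92), which was highest in female cKO 1 and 2. *Npy* and *Trh* had r = 0.59 over 12 libraries and -0.17 over the 11 without male cKO 3.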

How the data were processed

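Hippocampal RNA from 12 mice (4 groups of 3) was sequenced as poly-A selected, stranded libraries. The deposited table holds TPM values that the authors computed per gene, for 26409 genes. The submitters' processing notes name kallisto and mm10, whereas the study's methods describe STAR and Salmon, and which of them made the table is not given in the sources used here. TPM holds no counts, so no count model was used and read depth is unknown. Gene IDs were matched to GENCODE M21 (25245 matched). The 18197 genes whose mean reached 0.1 TPM were tested on log2(TPM + 0.1) with limma 3.58.1 (R 4.3.3, trended prior variance, two-sided, Benjamini-Hochberg adjustment over all of them); a call required an adjusted p under 0.05 and a fold over 1.2. The comparison of genotypes used 2 groups of 6, and all others used 1 fit of 4 groups. The test was checked on simulated data. No 2 libraries shared more than 0.00552% of their values above 0, so none was a duplicate. Fold differences are on the log2(TPM + 0.1) scale, which understates changes of low genes. Replicates were numbered by the labels; each is described as a separate sample, so p-values measure the spread between those samples. The members, the gene lists and the tests were chosen with earlier results of these data known. The text names the 10 members, their receptors, the 3 most abundant genes of each other list, any list gene called, *Dek*, Y-linked genes and the 3 genes most similar to each member; any other gene was named with its values known. Alternatives comprised 23 planned settings and 1 added after seeing the data (male cKO 2 and 3 left out together).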

Additional observations from a re-analysis of the deposited data

Results flagged for a closer look

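Among 6 libraries of 1 genotype, a single library stood apart from the other 5 by Dixon's criterion in 14 of 105 tests over 54 genes, those of the 10 neuropeptides, their receptors, the processing and granin genes and the other hippocampal peptides. In 3 of these tests 1 library was above 0 and the other 5 were at 0, which meets the criterion whatever the value. Of the other 102 tests 11 met it, where chance gives about 1 in 20 for a single test. The tests are not independent, since male cKO 3 was highest for 19.5% and lowest for 15.3% of all genes tested. The count therefore cannot show an excess over chance. In male cKO 3 the flagged genes were *Npy* (529 TPM, others 109 to 141 TPM), *Chga* (268 TPM, others 94.7 to 121 TPM), *Sstr2* (24.2 TPM, others 7.71 to 11.9 TPM), *Hcrtr1* (4.45 TPM, others 1.12 to 2.05 TPM) and *Pdyn* (16.4 TPM, others 10.5 to 12.3 TPM). In male cKO 2 they were *Trhr* (6.92 TPM, others 1.42 to 2.52 TPM), *Sstr1* (25.5 TPM, others 13.1 to 17.7 TPM), *Cckar* (0.0779 TPM, others at 0) and *Cadps* (74.0 TPM, below the others at 82.6 to 87.2 TPM). *Vipr1* was 27.4 TPM in female cKO 1 (others 13.3 to 17.7 TPM), and *Hcrt* was 0.258 TPM in female cKO 3 (others at 0). Among WT libraries, *Hcrt* was 0.933 TPM in male WT 1 (others 0.370 to 0.576 TPM), *Npffr2* was 0.0494 TPM in male WT 1 (others at 0), and *Vip* was 19.6 TPM in female WT 3 (others 23.7 to 25.2 TPM). *Trh* was not among them, because 2 cKO libraries were high together.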

How the results depend on the processing

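Of the 10 neuropeptide genes, 1 (*Hcrt*) was called over both sexes, and 0 were with a constant of 1 TPM, with a mean of at least 1 TPM (which removed *Hcrt* from the test), with sex as a covariate, and without male cKO 2 and 3 together; leaving out 1 library gave 0 to 1. *Hcrt* was called in 7 of the 23 alternatives that tested it, with adjusted p (limma) of 0.00434 to 0.233. *Pomc* was called in 2 of 23, and was then the 1 gene called among the 10 neuropeptide genes. No direction of a called gene was reversed. All genes called over both sexes numbered 27, and 17 with no filter, 16 without the libraries of conflicting sex, 8 among libraries named CMV, and 13 to 27 without 1 library. In females, 0 members became 1 with no filter and with an untrended prior (*Npff* in both), and 0 to 1 without 1 library; all genes went from 3 to 7 with an untrended prior, to 11 without the conflicting libraries, and to 1 to 7 without 1 library. In males, 0 members became 1 without the conflicting libraries (*Trh*) and 0 to 1 without 1 library (*Pomc*, without female WT 1); all genes went from 3 to 6 with no filter and with an untrended prior, to 7 without the conflicting libraries, and to 2 to 7 without 1 library. In the interaction and in the comparison of WT sexes, 1 member (*Npff*) was called with no filter and with an untrended prior. All genes called in the interaction were then 2 in each, 2 without the conflicting libraries and 0 to 1 without 1 library; between WT sexes they were 3 in each, 4 without the conflicting libraries and 0 to 1 without 1 library. *Npff* was above 0 in the female WT libraries alone, the only ones with the C57 prefix, so its pattern fixed these calls. Nothing is read from the call of any member in these alternatives. No receptor, processing or other peptide gene was called in any alternative. The order of levels kept 7 separated pairs without any 1 library and had 6 with a constant of 1 TPM. The causes were not tested. Same-numbered libraries did not deviate together (r of -0.0385 to 0.0445), so the numbers do not pair samples; with the replicate number as a block, 0 members and 3 genes were called over both sexes, and 1 gene in each of females and males. The unknown read depth limits every value below about 1 TPM.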
